A study of Mus musculus with 11 samples.

Results

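Glutathione S-transferases (Gst), UDP-glucuronosyltransferases (Ugt) and cytosolic sulfotransferases (Sult), the enzymes that attach glutathione, a sugar or sulfate to their substrates, were examined by RNA-Seq in hepatocytes with (*Xbp1* fl/fl) and without (*Xbp1* LKO) intact *Xbp1*, on a chow diet or an HFS diet. Protein-coding genes were taken by symbol and Ensembl identifier, which gave 62 genes of the 54232 identifiers counted, made up of 22 Gst, 21 Ugt and 19 Sult genes. Each library held hepatocytes of adult male mice on a C57BL/6 background, purified by density centrifugation. All mice carried the floxed *Xbp1* allele. *Xbp1* LKO mice also carried Cre driven by the albumin promoter, which deletes *Xbp1*, the transcription factor of the IRE1 arm of the unfolded protein response, in hepatocytes. The HFS (high fat sugar) diet was a Western diet with fructose and glucose in the drinking water, and either diet was fed for up to 6 weeks. There were 3 libraries from chow-fed *Xbp1* fl/fl mice and 2 from chow-fed *Xbp1* LKO mice, each from 1 mouse. There were 3 libraries from HFS-fed *Xbp1* fl/fl mice and 3 from HFS-fed *Xbp1* LKO mice, each a pool of 2 mice, and a chow library thus shows 1 animal where an HFS library shows the average of a pair.

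Conjugation makes bile acids, bilirubin, steroids, drugs and reactive lipids more soluble and ready for export into bile or blood. Gst enzymes use glutathione, Ugt enzymes use UDP-glucuronic acid in the lumen of the endoplasmic reticulum, and Sult enzymes use the sulfate donor PAPS in the cytosol. The genes lie in clusters of close copies. In the Ugt1a cluster each gene has its own first exon and promoter and shares the remaining exons with its neighbours, so that a first exon identifies the gene.

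Total counts were 19191032 to 23888401 per library. *Xbp1* was lower in *Xbp1* LKO hepatocytes on both diets by the whole-gene count, with 95.7 to 128 CPM (the count scaled by the TMM-adjusted library size) against 194 to 221 CPM on chow, and 97.3 to 135 CPM against 242 to 301 CPM on the HFS diet. Hepatocyte markers were present in every library, but the summed CPM of 16 such genes was 59486 and 87060 in *Xbp1* LKO against 169933 to 192618 in *Xbp1* fl/fl libraries on chow, and 70407 to 104122 against 140079 to 152194 on the HFS diet. For 13 macrophage markers the sum on chow was 23.2 to 99.8 CPM in *Xbp1* fl/fl and 26.9 and 39.5 CPM in *Xbp1* LKO libraries, and on the HFS diet 44.2 to 63.1 CPM and 63.1 to 112 CPM in the same order. Endothelial markers (12 genes) summed to 60.3 to 141 CPM in *Xbp1* fl/fl and 34.8 and 44.3 CPM in *Xbp1* LKO libraries on chow, and stellate cell markers (12 genes) to 14.6 to 45.6 CPM and 9.77 and 10.5 CPM, without overlap. In HFS-fed *Xbp1* LKO libraries they summed to 90.9 to 149 CPM and 31.9 to 66.4 CPM, above the chow-fed ones. The part of these cells and of the lower hepatocyte markers in the results was not tested. Library 1 of the chow-fed *Xbp1* fl/fl group held the highest sum of its group for macrophage, endothelial and stellate cell markers. No gene of the lists of macrophage, endothelial, stellate cell or cholangiocyte markers was at 0 in every library. In bulk libraries, fewer cells of a type and less RNA per cell cannot be told apart. Scaling by library totals instead of TMM moved the median log2 fold change of all genes by 0.33 on chow and 0.26 on the HFS diet for *Xbp1* LKO against *Xbp1* fl/fl, and changes are reported relative to the TMM scale.

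Of the 62 genes, 45 passed the filter on low counts and were tested, namely 20 Gst, 17 Ugt and 8 Sult genes. Among the 17 others, 9 had no count in any library, which allows a level of up to 0.111 to 0.173 CPM depending on the library (a limit of 3 counts, for counting error only). They were *Sult1c1*, *Sult2a2* to *Sult2a6*, *Sult3a2*, *Ugt2a1* and *Ugt2a2*. *Ugt2a1* and *Ugt2a2* have only 30 and 140 exon bases of their own, and several Sult2a genes share sequence with each other, so a 0 there covers reads that fit 1 gene only. The remaining 8 untested genes reached at most 1 to 4 counts in a library (*Gsto2*, *Gstt4*, *Sult2a1*, *Sult2b1*, *Sult3a1*, *Sult4a1*, *Ugt1a2* and *Ugt1a8*). At the other end, 19 genes had a mean of at least 100 CPM over the 11 libraries, 8 of them Gst, 8 Ugt and 3 Sult.

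Levels were compared between genes per kilobase of exon that belongs to 1 gene alone. *Gstm1*, a mu-class transferase, was the highest at 1014 CPM per kilobase, followed by *Ugt1a1*, the enzyme of bilirubin glucuronidation, at 445, *Ugt2b36* at 419 and *Gsta3*, an alpha-class transferase that handles epoxides such as that of aflatoxin, at 414. *Sult2a8*, a bile acid sulfotransferase of mouse liver, reached 313 and *Sult1a1* 192 CPM per kilobase. The level of *Ugt1a1* depends on the strand setting, which the sources do not give. Of 34 protein-coding genes with own exon bases on their strand but none once antisense exons are counted, 31 were at 0 in every library. Counting without strand would leave such genes at 0, and the level of *Ugt1a1* uses the 385 bases shared with no gene on either strand. On the 913 bases that are its own on its strand, the level would be 188 CPM per kilobase and its rank 10 in place of 2. With the 385 bases, the ranges of *Ugt1a1*, *Ugt2b36* and *Gsta3* over libraries overlapped, so their order was not resolved.

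**Figure D1:**
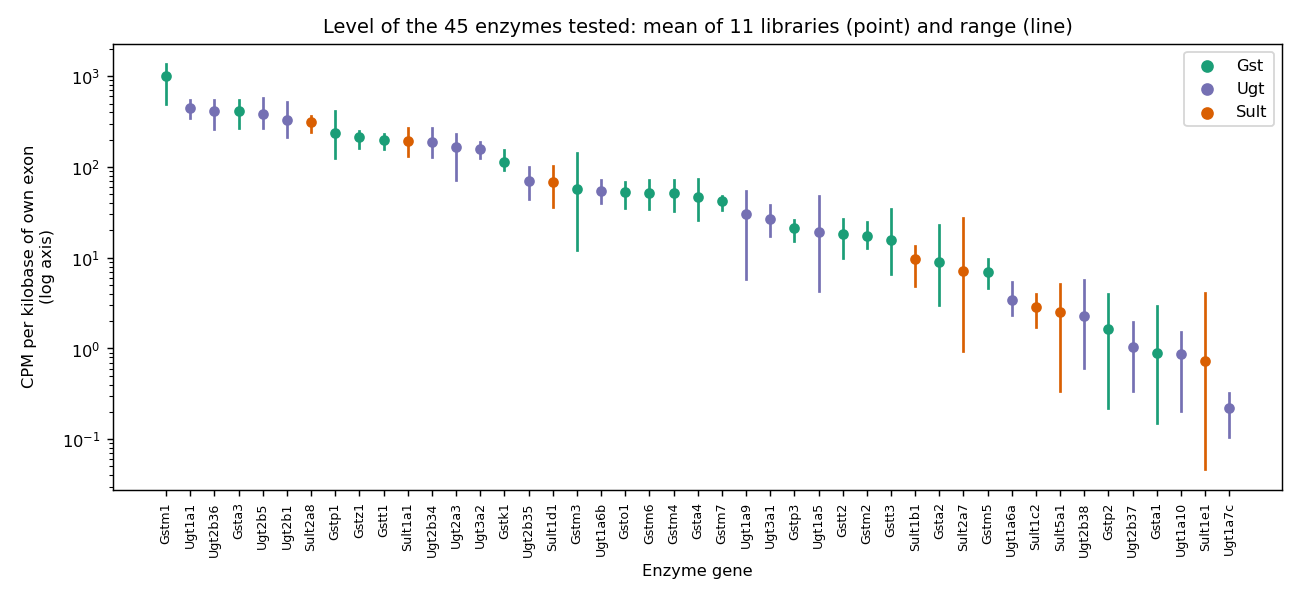
Mean level (point) and lowest to highest library (line) of the 45 enzymes tested, in CPM per kilobase of own exon on a log axis, coloured by family and ordered by level. Gstm1 stands at the top with 1014 CPM per kilobase, Ugt1a1 follows with 445 on exon bases free of genes on both strands, and the lowest tested gene, Ugt1a7c, has a mean of 0.222.

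Setting the genotypes side by side on each diet asks which enzymes differ with loss of *Xbp1*. On chow, 1 of the 45 tested enzymes was past the threshold (edgeR's quasi-likelihood test, Benjamini-Hochberg adjusted p under 0.05), namely *Gstp1*, which fell. Among all 13303 genes tested, 4.75% were past it, 1.73% higher and 3.02% lower. On the HFS diet, 4 of the 45 were past it, where 4.08% of all genes were, 1.92% higher and 2.16% lower. *Gstm3*, *Ugt1a9* and *Ugt1a10* rose and *Sult5a1* fell. Calls and adjusted p by edgeR are those of the main fit (all 11 libraries, TMM, low counts filtered out) unless another setting is named. The libraries of the genotypes did not overlap for 12 enzymes on chow, or 26.7% of those tested, against 31.3% of all genes, and for 17 on the HFS diet, or 37.8%, against 26.1% of all genes. The median log2 fold change of the tested enzymes was -0.18 on chow and 0.07 on the HFS diet, and that of all genes was 0.00 and 0.01. The direction on chow was not stable: the median was 0.14 by library totals, 0.02 without library 2 of the chow-fed *Xbp1* LKO group and -0.42 without its library 1, and on the HFS diet library totals gave 0.33. By library totals, the calls were 6 higher and 3 lower on chow, where TMM gave 0 and 1, and 9 higher and 1 lower on the HFS diet, where TMM gave 3 and 1. With that scaling 22.6% and 11.1% of all genes were called, 89.5% and 86.9% of them higher.

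The comparison of diets within a genotype asks which enzymes move with HFS feeding. HFS libraries are pools and chow libraries are not, so diet and pooling cannot be told apart. In *Xbp1* fl/fl hepatocytes, 1 of the 45 enzymes was past the threshold, *Ugt1a9*, which fell, where 0.428% of all genes were, 0.135% higher and 0.293% lower. The libraries of the diets did not overlap for 16 enzymes (35.6%, against 13.7% of all genes), of which 12 were lower and 4 higher on the HFS diet. In *Xbp1* LKO hepatocytes, 0 of the 45 were past the threshold by edgeR's quasi-likelihood test, where 0.0601% of all genes were, 0.0451% higher and 0.015% lower. There, 7 enzymes (15.6%, against 12.7% of all genes) had an unadjusted p under 0.05. DESeq2 called 2 (4.44%, against 1.60% of all genes), *Gsto1* and *Gstt2*, both lower on the HFS diet. The libraries did not overlap for 10 enzymes (22.2%, against 31.1% of all genes). The test of whether the diet effect differed between genotypes, the interaction, called 0 of the 45 enzymes and 0% of all genes by edgeR. It gave 6 enzymes (13.3%, against 6.13% of all genes) with an unadjusted p under 0.05, and DESeq2 called 1, *Ugt1a9*, where it called 0.218% of all genes. Each diet comparison shares a group of libraries with each genotype comparison, so a gene's changes in the comparisons are not separate observations, while the genotype comparisons on chow and on the HFS diet share no library.

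**Figure D2:**
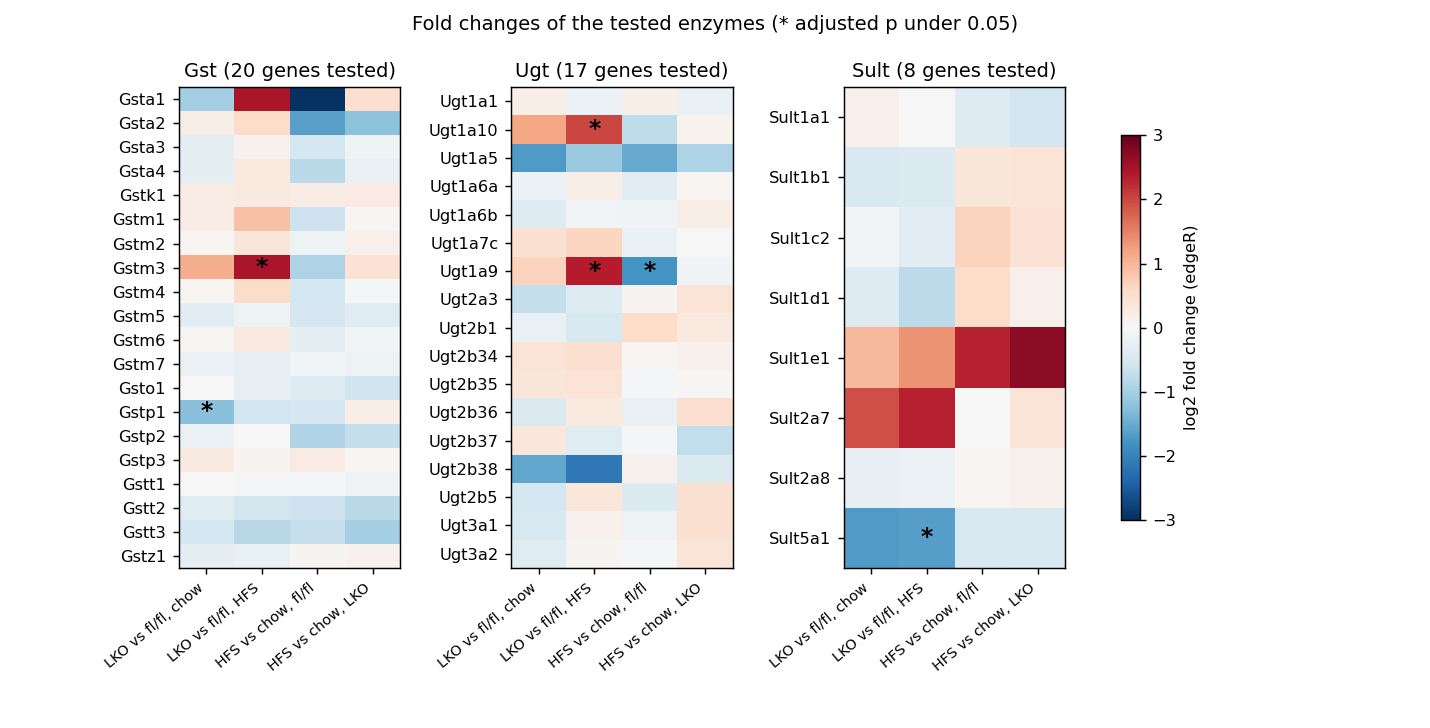
Fitted log2 fold changes of the 45 tested enzymes (rows, by family) in the 4 pairwise comparisons (columns), with red for higher and blue for lower in the group named first and an asterisk for an adjusted p under 0.05. The asterisks mark Gstp1 on chow, Gstm3, Ugt1a9, Ugt1a10 and Sult5a1 between genotypes on the HFS diet, and Ugt1a9 between diets in Xbp1 fl/fl hepatocytes.

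Among the Gst genes, *Gstm3* was the one past the threshold between genotypes on the HFS diet, where it rose in *Xbp1* LKO hepatocytes. *Gstm3* (chr3:107963696-107969283, minus strand of GRCm38, identifier ENSMUSG00000004038) encodes a mu-class transferase and sits in a cluster of 7 mu-class genes. Its level on the HFS diet was 33.5, 25.1 and 15.8 CPM in *Xbp1* fl/fl and 105, 113 and 189 CPM in *Xbp1* LKO libraries. On chow it was 38.1, 60.0 and 43.3 CPM in *Xbp1* fl/fl and 123 and 78.0 CPM in *Xbp1* LKO libraries. The lowest *Xbp1* LKO library of either diet thus stood above the highest *Xbp1* fl/fl library of either diet. The level was 136 ± 46.3 CPM (SD, n = 3) in HFS-fed *Xbp1* LKO against 24.8 ± 8.89 CPM (SD, n = 3) in HFS-fed *Xbp1* fl/fl libraries, a 5.47-fold rise by the fit (log2 fold change 2.45, standard error 0.32, adjusted p = 0.00270, edgeR with Benjamini-Hochberg adjustment). On chow the log2 fold change was 1.09 (standard error 0.33) and did not pass by edgeR (adjusted p = 0.0899), while DESeq2 called it (adjusted p = 0.0217). EdgeR also called the chow rise with library totals and with no filter on low counts. The HFS call was kept in each of 19 alternative settings. Of the 50-base windows of its transcripts, 71.2% occur in no other gene.

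None of the other mu-class genes was past the threshold in the main edgeR fit. *Gstm1*, the most abundant, had 1146, 733 and 1083 CPM in HFS-fed *Xbp1* fl/fl libraries and 1637, 1837 and 1963 CPM in HFS-fed *Xbp1* LKO libraries, with no overlap, and just missed the threshold (log2 fold change 0.88, standard error 0.22, adjusted p = 0.0524 by edgeR with Benjamini-Hochberg adjustment). DESeq2 and 6 of the other alternatives put it past the threshold. On chow its groups overlapped, with 1179, 2003 and 1349 CPM in *Xbp1* fl/fl and 1935 and 1569 CPM in *Xbp1* LKO libraries. Of the 7 mu-class genes, 5 had a positive log2 fold change for *Xbp1* LKO against *Xbp1* fl/fl on each diet, with a median of 0.06 on chow and 0.36 on the HFS diet. On chow the direction turned with single libraries, since without library 1 of the *Xbp1* LKO group 2 of 7 were positive (median -0.39), without its library 2 there were 6 (0.36), and without library 1 or library 2 of the *Xbp1* fl/fl group 3 (-0.10 and -0.02). Library totals made all 7 positive on both diets. Summed over the 7 genes, the level was 1477, 977 and 1352 CPM in HFS-fed *Xbp1* fl/fl and 2046, 2221 and 2485 CPM in HFS-fed *Xbp1* LKO libraries, without overlap. On chow the sums overlapped, with 1492, 2381 and 1749 CPM and 2431 and 1904 CPM. The share of *Gstm3* in that sum was 2.55, 2.52 and 2.47% and 2.27, 2.57 and 1.17% in chow-fed and HFS-fed *Xbp1* fl/fl libraries. It was 5.07 and 4.10% and 5.13, 5.09 and 7.61% in the *Xbp1* LKO libraries of the same diets, above every *Xbp1* fl/fl library.

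*Gstp1* was the enzyme that fell in chow-fed *Xbp1* LKO hepatocytes. It encodes the main pi-class transferase of mouse liver, where it is known to be more abundant in males (chr19:4035407-4037985, minus strand of GRCm38, ENSMUSG00000060803). Its level on chow was 486, 649.8 and 504 CPM in *Xbp1* fl/fl and 201 and 258 CPM in *Xbp1* LKO libraries, with the latter below the former. The lower group reached 229.6 ± 40.6 CPM (SD, n = 2) against 547 ± 89.8 CPM (SD, n = 3), a 2.38-fold difference by the fit (log2 fold change -1.25, standard error 0.25, adjusted p = 0.0184, edgeR with Benjamini-Hochberg adjustment). HFS-fed libraries had 407, 456 and 286 CPM in *Xbp1* fl/fl and 277, 195 and 314 CPM in *Xbp1* LKO hepatocytes. These groups overlapped, and the difference did not pass (log2 fold change -0.55, standard error 0.22, adjusted p = 0.221 by edgeR). The chow call was lost without either chow-fed *Xbp1* LKO library (adjusted p = 0.0880 and 0.0917) and without the second chow-fed *Xbp1* fl/fl library (adjusted p = 0.0606), by edgeR each time. On chow, 9 cholangiocyte markers summed to 12.8 to 15.8 CPM in *Xbp1* fl/fl and to 5.16 and 6.57 CPM in *Xbp1* LKO libraries, and on the HFS diet to 7.05 to 18.7 CPM and 11.7 to 17.7 CPM. Their part in the *Gstp1* difference was not tested. *Gstp1* shares 33.7% of its 50-base windows with its neighbour *Gstp2*, and *Gstp2* itself had 0.245 to 4.45 CPM. *Gstp3*, the remaining pi-class gene, had 14 to 24 CPM over all libraries, and its share of the pi-class sum was 8.72 and 7.25% in chow-fed *Xbp1* LKO against 3.50, 2.63 and 2.70% in *Xbp1* fl/fl libraries of that diet.

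The bases before the RefSeq start of *Gstp1* are shown because they hold, in capitals, a match to TGANTCAGC, the core of the site bound by NRF2 with a small MAF protein. The window is chr19:4037956-4038162 of GRCm38.p6 on the minus strand, it ends 43 bases before the RefSeq start, and the match begins 74 bases before that start. The last 30 bases lie past the GENCODE start, so that 8 of the 9 bases of the match fall inside the GENCODE transcript.
Gstp1: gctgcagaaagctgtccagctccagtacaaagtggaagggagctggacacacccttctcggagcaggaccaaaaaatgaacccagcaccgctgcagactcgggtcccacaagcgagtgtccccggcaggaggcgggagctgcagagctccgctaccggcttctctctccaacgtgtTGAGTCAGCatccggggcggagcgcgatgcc
Such a match on either strand was found in 250 bases before the start for 2 of the 54 members that have a RefSeq promoter entry, *Gstp1* and *Gstp2*. Counted by window, it was found in 3.08% of 65 member windows and in 1.02% of 32851 windows of all genes. TGANTCAGC overlaps in part with the antioxidant response element core TGACNNNGC. The latter was found for *Gsta3*, *Gstm5* and *Gstm7*, in 4.62% of member windows and 10.16% of all windows. Also searched was the unfolded protein response element core TGACGTG, found for *Sult2b1* alone, in 1.54% of member windows and 1.65% of all windows. The xenobiotic response element core GCGTG was found in 16.9% of member windows, that of *Gstp1* among them, and 28.2% of all windows. A match describes letters and not a bound site.

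No alpha-class gene was past the threshold between genotypes in the main edgeR fit. DESeq2 called *Gsta1* higher in *Xbp1* LKO hepatocytes on the HFS diet (log2 fold change 2.47, adjusted p = 0.0111). Some edgeR alternatives also called it, such as the fit of the compared groups alone (adjusted p = 0.0106). *Gsta3*, the most abundant, had 1991, 2402 and 2200.4 CPM in *Xbp1* fl/fl and 2231 and 1415 CPM in *Xbp1* LKO libraries on chow. HFS-fed libraries of the same genotypes had 1585, 1157 and 1807 CPM and 1739, 1723 and 1521 CPM. The genotypes overlapped on both diets, and the log2 fold change was -0.27 (standard error 0.23) on chow and 0.13 (standard error 0.20) on the HFS diet. Between diets, 17 of the 20 Gst genes had a negative log2 fold change in HFS-fed against chow-fed *Xbp1* fl/fl hepatocytes, all 4 alpha-class and all 7 mu-class genes among them, under TMM, RLE and library total scaling. None of the 20 passed the threshold in the main edgeR fit, DESeq2 called *Gsta1* (adjusted p = 0.00336) and *Gsta2* (adjusted p = 0.0284), and the median was -0.52. *Gsta2* had a mean of 4.95 CPM on the HFS diet against 15.3 CPM on chow (log2 fold change -1.62, standard error 0.48, adjusted p = 0.296 by edgeR). *Gsta4*, which acts on reactive aldehydes from lipid peroxidation, had 43.6 CPM against 76.7 CPM (log2 fold change -0.82, standard error 0.37, adjusted p = 0.558 by edgeR). In *Xbp1* LKO hepatocytes, 12 of the 20 were negative, with a median of -0.09, but without library 1 of the chow-fed group 7 were negative and the median was 0.09, and whether the diets' effects differed between genotypes was not called for any of them. Endothelial markers summed to 112 to 197 CPM in HFS-fed and 60.3 to 141 CPM in chow-fed *Xbp1* fl/fl libraries. The part of endothelial cells in these values was not tested. The theta-, kappa-, omega- and zeta-class genes were called in no pairwise comparison by the main edgeR fit. *Gstz1*, which also acts in tyrosine breakdown, had 732 to 1122 CPM, and *Gstt1* 243 to 351 CPM over the 11 libraries.

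**Figure D3:**
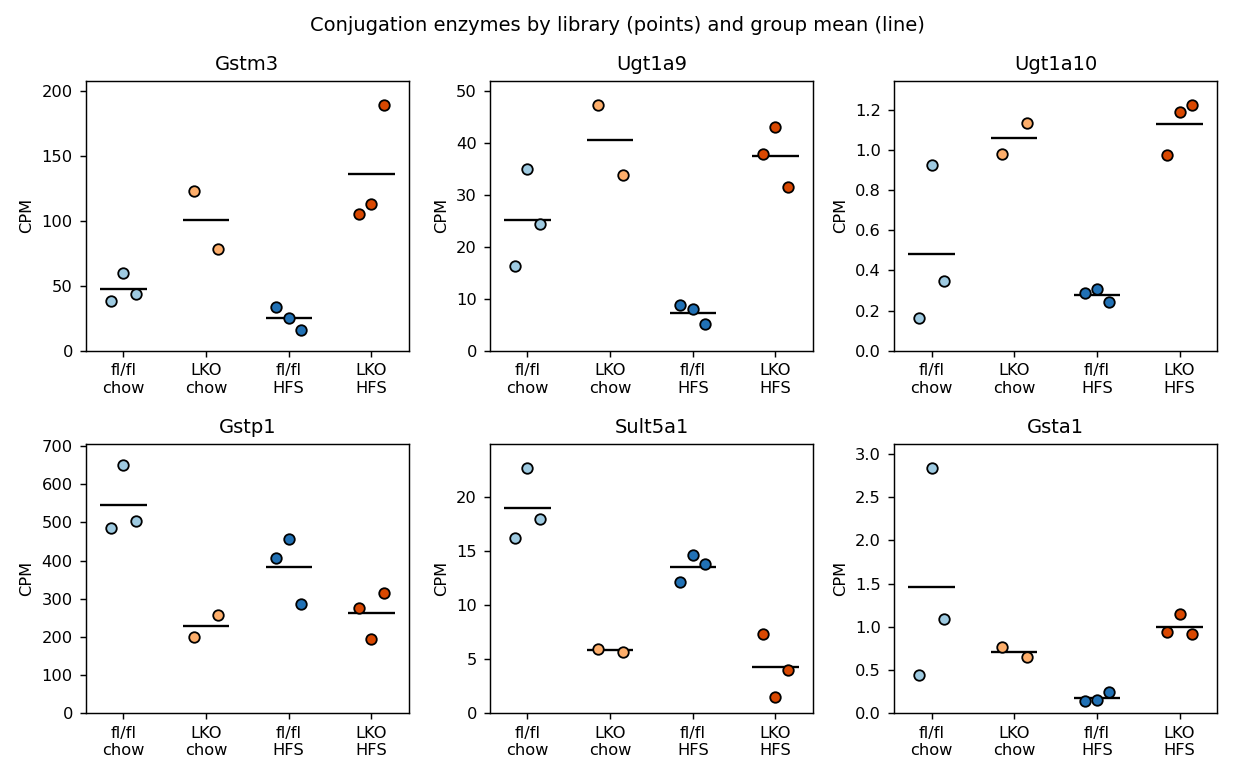
CPM of the 5 enzymes past the threshold in any comparison, and of Gsta1, in each library (points) with the group mean (line), on linear axes from 0. Gstm3 runs from 15.8 to 33.5 CPM in HFS-fed Xbp1 fl/fl and from 105 to 189 CPM in HFS-fed Xbp1 LKO libraries, and Gstp1 runs from 201 to 258 CPM in chow-fed Xbp1 LKO and from 486 CPM upward in chow-fed Xbp1 fl/fl libraries.

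Among the Ugt genes, *Ugt1a9*, which glucuronidates phenols and many drugs, was called in more than 1 comparison. It lies at chr1:88070800-88218997, plus strand of GRCm38 (ENSMUSG00000090175), and its counts are taken as those of its own first exon. On the HFS diet its level was 8.76, 7.99 and 5.14 CPM in *Xbp1* fl/fl and 38.0, 43.2 and 31.6 CPM in *Xbp1* LKO libraries. Chow-fed libraries had 16.3, 35.0 and 24.5 CPM in *Xbp1* fl/fl and 47.4 and 33.9 CPM in *Xbp1* LKO hepatocytes. The HFS-fed *Xbp1* fl/fl libraries stood below all 8 others, and the other groups overlapped with each other. On the HFS diet the level in *Xbp1* LKO was 37.6 ± 5.84 CPM (SD, n = 3) against 7.30 ± 1.91 CPM (SD, n = 3), a 5.14-fold rise by the fit (log2 fold change 2.36, standard error 0.28, adjusted p = 0.00226, edgeR with Benjamini-Hochberg adjustment), which was kept in each of 19 alternatives. Between diets, the level in *Xbp1* fl/fl hepatocytes was 3.46-fold lower on the HFS diet (log2 fold change -1.79, standard error 0.28, adjusted p = 0.0240 by edgeR). That call rests on the same HFS-fed *Xbp1* fl/fl libraries. It was lost when any of those 3 libraries (adjusted p from 0.0544 to 0.130 by edgeR), or the second (adjusted p = 0.0746) or the third (adjusted p = 0.0533) chow-fed *Xbp1* fl/fl library, was left out, and in a fit of the compared groups alone (adjusted p = 0.0712). Between genotypes on chow the log2 fold change of 0.69 (standard error 0.29) and between diets in *Xbp1* LKO hepatocytes that of -0.11 (standard error 0.29) did not pass. For the interaction the log2 fold change was 1.68 (standard error 0.40, adjusted p = 0.603 by edgeR, 0.0349 by DESeq2).

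*Ugt1a10* rose in the same comparison from a far lower level. Its level on the HFS diet was 0.286, 0.305 and 0.245 CPM in *Xbp1* fl/fl libraries, or 5 to 6 counts, and 0.978, 1.19 and 1.23 CPM in *Xbp1* LKO libraries, or 24 to 32 counts. Chow-fed libraries had 0.165, 0.925 and 0.349 CPM in *Xbp1* fl/fl and 0.981 and 1.14 CPM in *Xbp1* LKO hepatocytes. No *Xbp1* fl/fl library reached an *Xbp1* LKO library on either diet. The 4-fold rise on the HFS diet was near the threshold (log2 fold change 2.00, standard error 0.50, adjusted p = 0.0483, edgeR with Benjamini-Hochberg adjustment) and was lost in 11 of 18 alternatives. Those include leaving out any HFS-fed library (adjusted p from 0.0675 to 0.159), either chow-fed *Xbp1* LKO library (0.0580 and 0.0577) or the third chow-fed *Xbp1* fl/fl library (0.0501), again by edgeR.

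The upstream sequences of *Ugt1a9* and *Ugt1a10* are shown because these were the Ugt genes that rose. Each is the 250 bases before the RefSeq start on the plus strand, chr1:88070529-88070778 for *Ugt1a9* and chr1:88055161-88055410 for *Ugt1a10* in GRCm38.p6. Capitals mark GTTAAT (or ATTAAC on the other strand), the core of the site of HNF1, a factor known for its role at liver Ugt1a promoters, and the last 23 bases of the *Ugt1a10* window lie past the GENCODE start.
Ugt1a9: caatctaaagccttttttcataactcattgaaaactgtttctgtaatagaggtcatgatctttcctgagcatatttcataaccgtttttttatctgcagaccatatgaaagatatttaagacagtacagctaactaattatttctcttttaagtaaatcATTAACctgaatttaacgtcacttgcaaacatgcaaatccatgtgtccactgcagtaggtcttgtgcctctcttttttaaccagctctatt
Ugt1a10: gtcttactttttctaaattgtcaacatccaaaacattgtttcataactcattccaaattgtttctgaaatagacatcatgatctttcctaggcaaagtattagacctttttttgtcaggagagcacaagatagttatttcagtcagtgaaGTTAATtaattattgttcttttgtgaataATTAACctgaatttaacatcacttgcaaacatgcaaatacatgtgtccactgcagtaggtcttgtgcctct
The core begins 91 bases before the RefSeq start of *Ugt1a9* and 100 and 71 bases before that of *Ugt1a10*. It was found for 14 of the 54 members with a promoter entry, also for *Ugt1a1* and *Ugt1a6a* within the cluster. Counted by window, it was found in 21.54% of 65 member windows and in 6.432% of all windows. The *Ugt1a9* and *Ugt1a10* windows were identical at 188 of 227 aligned bases, or 82.82%, the highest of the 28 pairs within Ugt1a. The pair of *Ugt1a7c* and *Ugt1a8* followed with 75% of 132 bases. Counted over whole transcripts with the common exons, 38% and 37% of the 50-base windows of *Ugt1a9* and *Ugt1a10* occur in no other gene.

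Within the Ugt1a cluster the shares of single genes differed between genotypes while the sum overlapped. The sum of the 9 genes on chow was 256, 346 and 264 CPM in *Xbp1* fl/fl and 332 and 248 CPM in *Xbp1* LKO libraries. On the HFS diet it was 267, 225 and 291 CPM and 279, 288 and 225 CPM. *Ugt1a9* took 6.37, 10.1 and 9.27% of it in chow-fed *Xbp1* fl/fl and 3.28, 3.56 and 1.77% in HFS-fed *Xbp1* fl/fl libraries. In *Xbp1* LKO libraries it took 14.3 and 13.7% on chow and 13.6, 15 and 14% on the HFS diet, above every *Xbp1* fl/fl library. *Ugt1a5* showed another order, with 16.9, 9.07 and 13.5% in *Xbp1* fl/fl and 4.94 and 2.47% in *Xbp1* LKO libraries on chow. In HFS-fed libraries its share was 6.40, 5.57 and 3.03% and 3.46, 1.34 and 1.98%. Its level was 43.3, 31.4 and 35.6 CPM and 16.4 and 6.12 CPM on chow in the same order of genotypes, a difference that just missed the threshold (log2 fold change -1.71, standard error 0.45, adjusted p = 0.0559 by edgeR with Benjamini-Hochberg adjustment) and that DESeq2 called (adjusted p = 0.00222). EdgeR called it with library totals (adjusted p = 0.0358), with no filter and with either replicate block (0.0104 and 0.00878). In *Xbp1* fl/fl hepatocytes its mean was 12.8 CPM on the HFS diet against 36.8 CPM on chow, without overlap. The main edgeR fit did not call this drop (log2 fold change -1.52, standard error 0.39, adjusted p = 0.197). DESeq2 (adjusted p = 0.00967) and edgeR with either replicate block (0.0274 and 0.0197) called it. Most other alternatives called neither. *Ugt1a1* held the largest share in every library, 51.1% to 72.9%. Its level on chow was 145, 203 and 135 CPM in *Xbp1* fl/fl and 209 and 162 CPM in *Xbp1* LKO libraries. HFS-fed libraries had 179, 153 and 212 CPM and 169, 175 and 141 CPM. The groups overlapped in all pairwise comparisons, and the log2 fold changes lay between -0.20 and 0.20. These shares compare first exons of unequal own length, so they describe libraries and not amounts of enzyme.

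**Figure D4:**
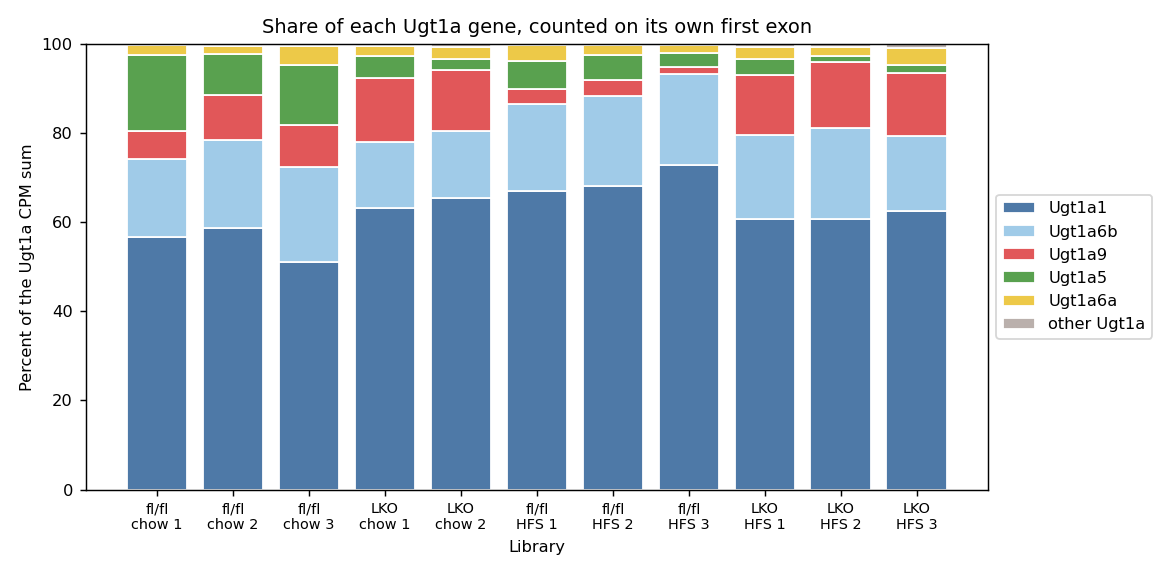
Percent of the summed Ugt1a CPM taken by each gene (stacked bars) in each of the 11 libraries, counted on own first exons. Ugt1a9 (red) takes 1.77% to 3.56% in HFS-fed Xbp1 fl/fl and 13.6% to 15% in HFS-fed Xbp1 LKO libraries, and Ugt1a5 (green) is widest in chow-fed Xbp1 fl/fl libraries with 9.07% to 16.9%.

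The Ugt2b genes, whose products glucuronidate steroids and other lipids, made up most of the Ugt counts, and the main edgeR fit called none of the 7 in any comparison. *Ugt2b34* had 552, 725 and 748 CPM in *Xbp1* fl/fl and 845 and 935 CPM in *Xbp1* LKO libraries on chow. On the HFS diet it had 703, 759 and 652 CPM and 805, 969 and 1169 CPM. Every *Xbp1* LKO library thus stood above every *Xbp1* fl/fl library of either diet. By library totals, where most called genes were higher, edgeR called it higher on both diets (adjusted p = 0.0243 and 0.0237). DESeq2 called *Ugt2b38* between genotypes on the HFS diet (log2 fold change -2.14, adjusted p = 0.00762), at means of 1.53 CPM in *Xbp1* LKO and 6.69 CPM in *Xbp1* fl/fl libraries. EdgeR with no filter on low counts also called it lower, with adjusted p = 2.62e-10 on the HFS diet and 0.000190 on chow. *Ugt2b36* had 675, 991 and 1119 CPM in *Xbp1* fl/fl and 826 and 542 CPM in *Xbp1* LKO libraries on chow. HFS feeding went with 813, 766 and 827 CPM and 928, 981 and 1018 CPM. HFS-fed *Xbp1* LKO libraries were above the HFS-fed *Xbp1* fl/fl and the chow-fed *Xbp1* LKO libraries without overlap, with log2 fold changes of 0.28 (standard error 0.20) and 0.51 (standard error 0.22) that did not pass (adjusted p = 0.533 and 0.369 by edgeR). The summed Ugt2b level on chow was 2493, 3578 and 4175 CPM in *Xbp1* fl/fl and 3316 and 2827 CPM in *Xbp1* LKO libraries. On the HFS diet it was 3719, 3472 and 3236 CPM and 3612, 3878 and 3977 CPM, and the groups overlapped on both diets. *Ugt3a1* and *Ugt3a2*, which use other sugar donors than UDP-glucuronic acid, and *Ugt2a3* were called in no comparison by the main edgeR fit. With no filter on low counts, edgeR called *Ugt2a3* lower in *Xbp1* LKO hepatocytes on chow (log2 fold change -0.70, adjusted p = 0.0114). Its log2 fold change was -1.36 without library 1 of the chow-fed *Xbp1* LKO group. DESeq2 called *Ugt3a2* lower in *Xbp1* LKO hepatocytes on chow (log2 fold change -0.37, adjusted p = 0.0460).

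**Figure D5:**
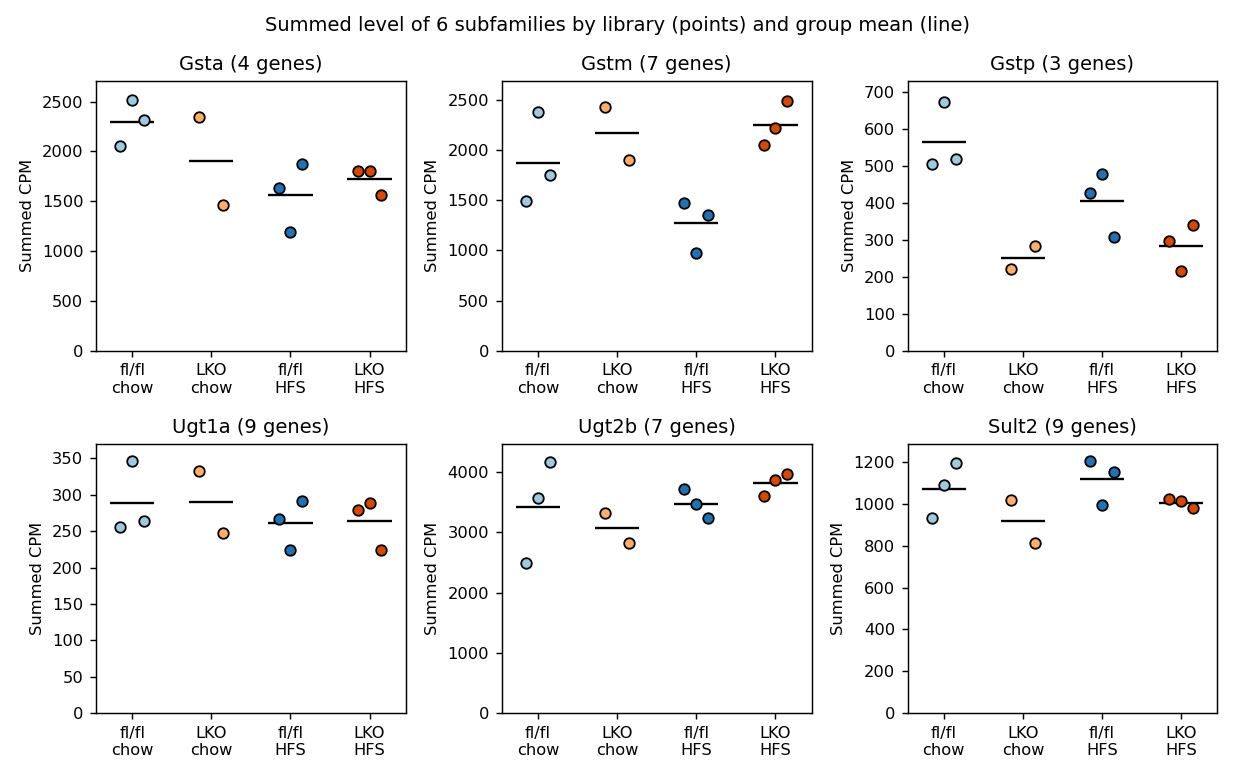
Summed CPM of 6 subfamilies in each library (points) with the group mean (line), on linear axes from 0. The Gstm sum separates the genotypes on the HFS diet (977 to 1477 CPM in Xbp1 fl/fl, 2046 to 2485 CPM in Xbp1 LKO), the Gstp sum separates them on chow (506 to 672 CPM and 222 to 282 CPM), and the Ugt1a, Ugt2b and Sult2 sums overlap between genotypes on each diet.

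Among the Sult genes, *Sult5a1* fell in *Xbp1* LKO hepatocytes on the HFS diet. It is the single family 5 member measured here (chr8:123140192-123158315, minus strand of GRCm38, ENSMUSG00000000739), and 98.9% of its 50-base windows occur in no other gene. Its level on the HFS diet was 12.1, 14.6 and 13.8 CPM in *Xbp1* fl/fl and 7.33, 1.49 and 4.03 CPM in *Xbp1* LKO libraries. Chow-fed libraries had 16.2, 22.7 and 17.9 CPM in *Xbp1* fl/fl and 5.97 and 5.68 CPM in *Xbp1* LKO hepatocytes. All 5 *Xbp1* LKO libraries were below all 6 *Xbp1* fl/fl libraries. The level was 3.17-fold lower on the HFS diet (log2 fold change -1.66, standard error 0.39, adjusted p = 0.0377, edgeR with Benjamini-Hochberg adjustment). The difference on chow was of like size and just missed the threshold (log2 fold change -1.70, standard error 0.44, adjusted p = 0.0519 by edgeR), while DESeq2 called it (adjusted p = 0.00205). The HFS call was lost without any 1 of the HFS-fed *Xbp1* fl/fl libraries or the third HFS-fed *Xbp1* LKO library (adjusted p from 0.0843 to 0.120 by edgeR), and in a fit of the compared groups alone (0.0699).

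The more abundant sulfotransferases were called in no comparison by the main edgeR fit. *Sult2a8* had 926, 1085 and 1192 CPM in *Xbp1* fl/fl and 1005 and 798 CPM in *Xbp1* LKO libraries on chow. With HFS feeding, the values were 1203, 988 and 1147 CPM and 1014, 1003 and 944 CPM. The groups overlapped in all 4 pairwise comparisons, with log2 fold changes from -0.24 to 0.13 (standard errors 0.15 to 0.16). *Sult2a8* made up 96.4% to 99.9% of the counts of the 9 Sult2 genes in every library. *Sult2a1* to *Sult2a6* reached at most 2 counts in a library, and *Sult2a7* had 1.19 to 35.3 CPM. *Sult1a1*, which sulfates small phenols, had 360.2, 303 and 267 CPM in *Xbp1* fl/fl and 393 and 300.3 CPM in *Xbp1* LKO libraries on chow. The HFS-fed libraries had 206, 247 and 264 CPM and 284, 236 and 192 CPM. In both genotypes the HFS libraries lay below the chow libraries without overlap, and neither difference passed (log2 fold change -0.38, adjusted p = 0.589 in *Xbp1* fl/fl and -0.55, adjusted p = 0.296 in *Xbp1* LKO hepatocytes, by edgeR). Between genotypes it overlapped on both diets. *Sult1d1*, which sulfates catecholamines, showed another order of diets. Its level in *Xbp1* fl/fl libraries was 173, 149.7 and 159 CPM on chow and 205, 252 and 246 CPM on the HFS diet. In *Xbp1* LKO libraries it was 156 and 90.1 CPM on chow and 169, 120.1 and 122 CPM on the HFS diet. The HFS-fed *Xbp1* fl/fl libraries were thus the highest, without overlap with any other group. Against them, the HFS-fed *Xbp1* LKO libraries just missed the threshold (log2 fold change -0.77, standard error 0.20, adjusted p = 0.0545 by edgeR), and DESeq2 called the difference (adjusted p = 0.00511). EdgeR also called it in a fit of the compared groups alone (adjusted p = 0.0288) and with no filter on low counts (0.000120). The same held without library 1 of the HFS-fed *Xbp1* LKO group (0.0332), while most other alternatives did not call it. The share of *Sult1a1* in the Sult1 sum was lowest in HFS-fed *Xbp1* fl/fl libraries, at 45.2% to 47.6%, against 56.3% to 73.7% in the other groups. *Sult2a7* was at a mean of 3.49 CPM in *Xbp1* fl/fl and 13.3 CPM in *Xbp1* LKO libraries on chow, and of 3.50 CPM and 17.3 CPM on the HFS diet, where the single *Xbp1* LKO libraries had 8.59, 7.96 and 35.3 CPM, with log2 fold changes of 1.93 (standard error 0.73) and 2.31 (standard error 0.68) that did not pass (adjusted p = 0.165 and 0.0844 by edgeR). The HFS-fed mean is thus carried by library 3, and DESeq2 called the HFS difference (adjusted p = 0.0491). EdgeR called both differences with library totals (adjusted p = 0.0446 on chow and 0.0327 on the HFS diet) and with no filter on low counts.

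The genes that supply the donors, export the conjugates or act on these enzymes' transcription were counted by 8 lists of 57 genes, of which 49 were tested. On chow, 2 were higher and 1 lower in *Xbp1* LKO hepatocytes, and on the HFS diet 1 was higher and 1 lower, by edgeR with Benjamini-Hochberg adjustment. These are 6.12% and 4.08% of the 49, near the 4.75% and 4.08% of all genes. *Papss1*, which makes PAPS, was the lower one on both diets, with means of 10.1 against 19.2 CPM on chow (log2 fold change -0.93, standard error 0.16, adjusted p = 0.00893) and 9.31 against 13.7 CPM on the HFS diet (log2 fold change -0.56, standard error 0.14, adjusted p = 0.0499). The higher ones on chow were *Abcc4*, an exporter of glucuronide and sulfate conjugates, with means of 7.82 against 0.731 CPM (log2 fold change 3.42, standard error 0.87, adjusted p = 0.0475), and *Ahr*, the receptor that binds aromatic ligands and acts on Ugt1a and Gsta genes, with 74.1 against 41.7 CPM (log2 fold change 0.83, adjusted p = 0.0413). *Nfe2l2*, which encodes NRF2, was the higher one on the HFS diet, with 107 against 70.7 CPM (log2 fold change 0.59, standard error 0.12, adjusted p = 0.0191). Between diets, 1 of the 49 was called in *Xbp1* fl/fl hepatocytes and 0 in *Xbp1* LKO hepatocytes. The former was *Ugdh*, which makes UDP-glucuronic acid, with a mean of 132 CPM on the HFS diet against 253 CPM on chow (log2 fold change -0.95, standard error 0.16, adjusted p = 0.0333 by edgeR). None of the 9 tested genes of glutathione synthesis and recycling passed in any comparison.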

How the data were processed

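RNA-Seq counts of hepatocytes were used in 11 libraries. The values the authors deposited are raw counts, 1 whole number for each Ensembl gene and library. The paper's methods name kallisto and tximport, while the processing notes of the labels name cutadapt 1.13, STAR, HTSeq 0.6.1p1, DESeq2 and mm10. In the files, 737 of 743 genes with no exon base of their own on their strand were at 0 in every library, so reads that match several genes are taken as uncounted, and the shared Ugt1a exons as missing. The strand setting is not given in the sources used here. A check took 34 protein-coding genes with at least 300 own exon bases on their strand and none once antisense exons are counted. Of these, 31 were at 0 in every library. A mean of at least 1 count was reached by 2 of them, against 61.5% of all protein-coding genes. GENCODE M21 (GRCm38) holds 54165 of the 54232 identifiers. Libraries held 19191032 to 23888401 counts. Between replicates, chi-square per degree of freedom was 25.6 to 93.7, so none was a repeat of another. HFS libraries are pools of 2 mice and chow libraries hold 1 mouse. The fit gives each gene a single spread across all 11 libraries, single mice and pools alike, and p-values measure that spread.

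Normalization (TMM), CPM and tests were made with edgeR 4.0.16 under R 4.3.3, after removal of low genes by filterByExpr at a minimum count of 10. A single quasi-likelihood fit of 4 group means took in all 11 libraries, and p-values were adjusted over 13303 genes by Benjamini-Hochberg, with a threshold of 0.05. DESeq2 1.42.0, RLE factors, library totals, a minimum count of 30, no filter, a fit of the compared groups alone, replicate blocks and leaving out each library were the alternatives. The *Ugt1a1* length by strand was chosen after seeing the data. The code was tested on simulated counts. Named are members past the threshold in any comparison and the 2 highest per kilobase in each family. *Ugt1a10*, whose mean was under 1 CPM, is given in full although the rule asks this only from 1 CPM on. Other members with values, *Gsta1* and *Ugt1a5* among them, and *Ugdh* were chosen after their values were seen. Members and lists were chosen with earlier results of these data known. Uniqueness is the share of 50-base windows of a gene's transcripts found in no other gene. Promoters are RefSeq windows on GRCm38.p6, and motifs were searched on both strands.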

Additional observations from a re-analysis of the deposited data

Results flagged for a closer look

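*Gsta1*, an alpha-class transferase, differed in direction between the genotypes' responses to diet. *Xbp1* fl/fl libraries had 0.441, 2.83 and 1.10 CPM on chow and 0.143, 0.153 and 0.245 CPM on the HFS diet, and *Xbp1* LKO libraries had 0.768 and 0.655 CPM on chow and 0.937, 1.15 and 0.920 CPM on the HFS diet. Every HFS library was below every chow library in *Xbp1* fl/fl hepatocytes, and every HFS library was above every chow library in *Xbp1* LKO hepatocytes. The log2 fold changes were -2.97 (standard error 0.64, adjusted p = 0.0946) and 0.49 (standard error 0.60, adjusted p = 0.776), and the interaction was 3.46 (standard error 0.89, adjusted p = 0.631), by edgeR with Benjamini-Hochberg adjustment, so the difference did not pass. DESeq2 called the lower level on the HFS diet in *Xbp1* fl/fl hepatocytes (log2 fold change -3.01, adjusted p = 0.00336) and the higher level in *Xbp1* LKO hepatocytes on the HFS diet (2.47, adjusted p = 0.0111). EdgeR called the former without library 1 of the chow-fed *Xbp1* fl/fl group (adjusted p = 0.0259) and with no filter on low counts (1.49e-05). It called the latter with library totals (adjusted p = 0.0219), no filter (0.000346) and the compared groups alone (0.0106). Leaving out library 1 or 2 of the chow-fed *Xbp1* fl/fl group also gave the latter call (0.0201 and 0.0174). The other edgeR alternatives gave neither call. The interaction was past the threshold by edgeR with no filter on low counts (adjusted p = 0.00160) and in no other alternative. The values rest on 3 to 49 counts per library, and 9.5% of the gene's 50-base windows occur in no other gene, with 75.7% shared with *Gm3776*.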

How the results depend on the processing

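No named log2 fold change that was past the threshold reversed in any alternative, and the calls of *Gstm3* and *Ugt1a9* between genotypes on the HFS diet were kept in all 19. The numbers of enzymes called, 1 and 4 between genotypes on chow and the HFS diet, 1 and 0 between diets in *Xbp1* fl/fl and *Xbp1* LKO hepatocytes and 0 for the interaction, became 5, 9, 4, 2 and 1 with DESeq2, which called 1130, 1007, 181, 213 and 29 of all genes. They became 8, 14, 11, 6 and 3 with no filter on low counts (53 members among 26016 genes tested), where the calls over all genes were 1507, 1438, 499, 722 and 269, and the cause was not tested. In that setting 15.1, 26.4, 20.8, 11.3 and 5.66% of the members were called, against 5.79, 5.53, 1.92, 2.78 and 1.03% of all genes. Library totals gave 9 on chow and 10 on the HFS diet, among 3000 and 1483 of all genes. A fit of the compared groups alone gave 2 on chow, 6 on the HFS diet and 0 between diets in *Xbp1* fl/fl and in *Xbp1* LKO hepatocytes. These stood among 233, 809, 38 and 0 of all genes, in that order. Leaving out 1 library of a group of 3 gave 1 to 3 on chow, 2 to 6 on the HFS diet and 0 to 2 between diets in *Xbp1* fl/fl hepatocytes. The calls over all genes then ran from 326 to 600, from 184 to 643 and from 6 to 48 in the same order. Leaving out either library of the chow-fed *Xbp1* LKO group left a single library there. The median log2 fold change of the enzymes on chow was then -0.42 without library 1 and 0.02 without library 2, against -0.18 with both.

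The deviations of same-numbered libraries of different groups from their group means had a mean r of -0.0087, from -0.20 to 0.23 over 15 pairs. Groups of 2 or 3 libraries are too small for these correlations to show whether the numbers pair the libraries. With the replicate block the calls were 2 on chow, 3 on the HFS diet and 2 between diets in *Xbp1* fl/fl hepatocytes, among 455, 412 and 38 of all genes. With the block by the other numbering they were 1, 3 and 2, among 488, 429 and 40 of all genes. Calls lost under a block were *Gstp1* on chow (adjusted p = 0.0523, other numbering) and, on the HFS diet, *Sult5a1* (0.0634 and 0.0582) and *Ugt1a10* (0.0615 and 0.0539), by edgeR.

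Low counts limit *Ugt1a10* and *Gsta1*, and first-exon counting and close copies limit the Ugt1a, Gstp and Gsta genes. With 2 libraries, the chow-fed *Xbp1* LKO group carries the fewest animals.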
